A study of Homo sapiens with 18 samples.

Results

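CCBE1, VEGFC, ADAMTS3, VEGFA, NRP1, NRP2 and ESM1 encode secreted and surface proteins of VEGF signalling and lymphatic vessel growth. These 7 genes, taken by their symbols from the count tables, are 7 of 60642 symbols listed, and all 7 were among the 15298 genes that passed the filter on low counts. They were measured in MDA-MB-231, an established human TNBC (triple-negative breast cancer) cell line, which makes such factors but is not an endothelial cell. CCBE1 was taken because the study singled it out as induced by Dex and lower in the depleted cells, and ESM1 because it was lower with Dex. These 2 members were thus chosen by their measured RNA levels in these libraries, and the values that chose them are given as a description without a test.

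Cells were transfected for 48 h with 25 nM of a SMART-pool siRNA against HP1γ (siHP1γ, whose target gene is CBX3), against the arginine methyltransferase PRMT5 (siPRMT5) or of non-specific sequence (siNS). Each was then treated for 8 h with 100 nM dexamethasone (Dex), a synthetic glucocorticoid that activates the glucocorticoid receptor (GR), or with the same volume of the vehicle ethanol (Eth). The 6 conditions (siNS Eth, siNS Dex, siHP1γ Eth, siHP1γ Dex, siPRMT5 Eth and siPRMT5 Dex) have 3 replicates each. All groups are transfected cells of the same line and carry no engineered allele, and the paper states growth in charcoal-stripped serum before experiments, while the labels give 10% fetal bovine serum.

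VEGFC is made as an inactive precursor that drives lymphatic growth through the receptor VEGFR3 once its ends are cut off. The protease ADAMTS3 makes the activating cut, and CCBE1, a secreted matrix protein, assembles VEGFC with ADAMTS3 and speeds that cut, while proprotein convertases such as FURIN make an earlier cut inside the cell. VEGFA, the main ligand of VEGFR2 (gene KDR), drives blood vessel growth and is a known target of hypoxia-inducible factors. NRP1 and NRP2, the neuropilins, bind VEGFs as coreceptors and semaphorins together with plexins. ESM1 (endocan) is a secreted proteoglycan best known from endothelial cells that respond to VEGF.

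The 250 bases before the RefSeq start of VEGFC, of ADAMTS3 and of the VEGFA receptor gene KDR are shown because VEGFC and KDR moved with Dex and ADAMTS3 with siHP1γ, and because these windows hold no annotated exon of the gene itself. They are read 5′ to 3′ on the gene's strand from GRCh38.p14, and capitals mark motif matches.
VEGFC, chr4:176792923-176793172, minus strand: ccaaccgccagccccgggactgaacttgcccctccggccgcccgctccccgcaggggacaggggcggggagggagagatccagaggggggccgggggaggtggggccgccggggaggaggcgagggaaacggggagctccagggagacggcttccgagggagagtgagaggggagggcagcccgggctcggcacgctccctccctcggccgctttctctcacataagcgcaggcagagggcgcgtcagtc
ADAMTS3, chr4:72569222-72569471, minus strand: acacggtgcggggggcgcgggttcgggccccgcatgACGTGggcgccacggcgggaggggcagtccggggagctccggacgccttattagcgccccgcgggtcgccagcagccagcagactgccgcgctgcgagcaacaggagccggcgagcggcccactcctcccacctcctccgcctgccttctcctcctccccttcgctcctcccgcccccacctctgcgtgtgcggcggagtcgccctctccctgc
KDR, chr4:55125596-55125845, minus strand: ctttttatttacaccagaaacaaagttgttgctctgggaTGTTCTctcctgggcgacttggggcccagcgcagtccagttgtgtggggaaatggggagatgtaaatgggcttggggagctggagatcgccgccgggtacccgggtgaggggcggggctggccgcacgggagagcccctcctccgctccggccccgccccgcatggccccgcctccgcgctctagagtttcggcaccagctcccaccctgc

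Both strands of these windows were searched for a glucocorticoid response element (GNACA and TGTNC with a gap of 3 bases), the single glucocorticoid hexamer (AGAACA), an AP-1 site (TGANTCA) and the core of a hypoxia response element (ACGTG). Of 35114 RefSeq promoter windows of the same length, 0.328% held the full glucocorticoid element, 12.4% the hexamer, 6.57% the AP-1 site and 18.5% the hypoxia core. The ADAMTS3 window held 1 hypoxia core, 214 bases before the start, and the KDR window held 1 hexamer, read as TGTTCT on its reverse strand, 211 bases before the start. The VEGFC window held none of the 4 motifs. Of the 7 members, 5 had a RefSeq window. Neither a full glucocorticoid element nor an AP-1 site was found in any of the 5. The CCBE1 and ESM1 windows held 1 hypoxia core each, but all 250 bases for ESM1 and 132 for CCBE1 lie in annotated exons of the gene itself. Elements farther from the start were not searched. By ChIP-qPCR, the paper reports GR, HP1γ and PRMT5 at GR response elements of its target genes after Dex, and it lists primers for such elements of CCBE1.

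The 18 libraries held 8682992 to 12472381 counts. On the leading components of a principal component analysis of log2 CPM, the libraries of each condition lay together. Replicates were also compared by the chi-square per degree of freedom of their counts, which was 2.10 to 12.3 over the pairs. It was highest for siHP1γ Dex 1 (12.3 and 7.38 against its replicates, beside 3.23 between siHP1γ Dex 2 and 3). PRMT5 mRNA was at 6.10 to 11.5 CPM (read counts scaled to a common library size, with TMM factors) in siPRMT5 libraries and at 177 to 262 CPM in all others, and CBX3 mRNA at 9.23 to 15.8 CPM in siHP1γ libraries and at 218 to 288 CPM in all others. The line's mesenchymal markers VIM, CD44, AXL and CAV1 were present in every library (lowest 182 CPM), whereas ESR1 and PGR had at most 2 counts per library and ERBB2 was at 24.5 to 36.0 CPM. Of 10 endothelial and lymphatic endothelial markers, 4 passed the filter, and CDH5, VWF, TEK, FLT1, FLT4 and LYVE1 had at most 7 counts in any library. The summed level of the 10 was 103 to 126 CPM in siNS Eth, 126 to 137 in siNS Dex, 116 to 127 in siHP1γ Eth, 105 to 123 in siHP1γ Dex, 126 to 137 in siPRMT5 Eth and 132 to 152 in siPRMT5 Dex, most of it TIE1 (93.0 to 129 CPM).

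**Figure D1:**
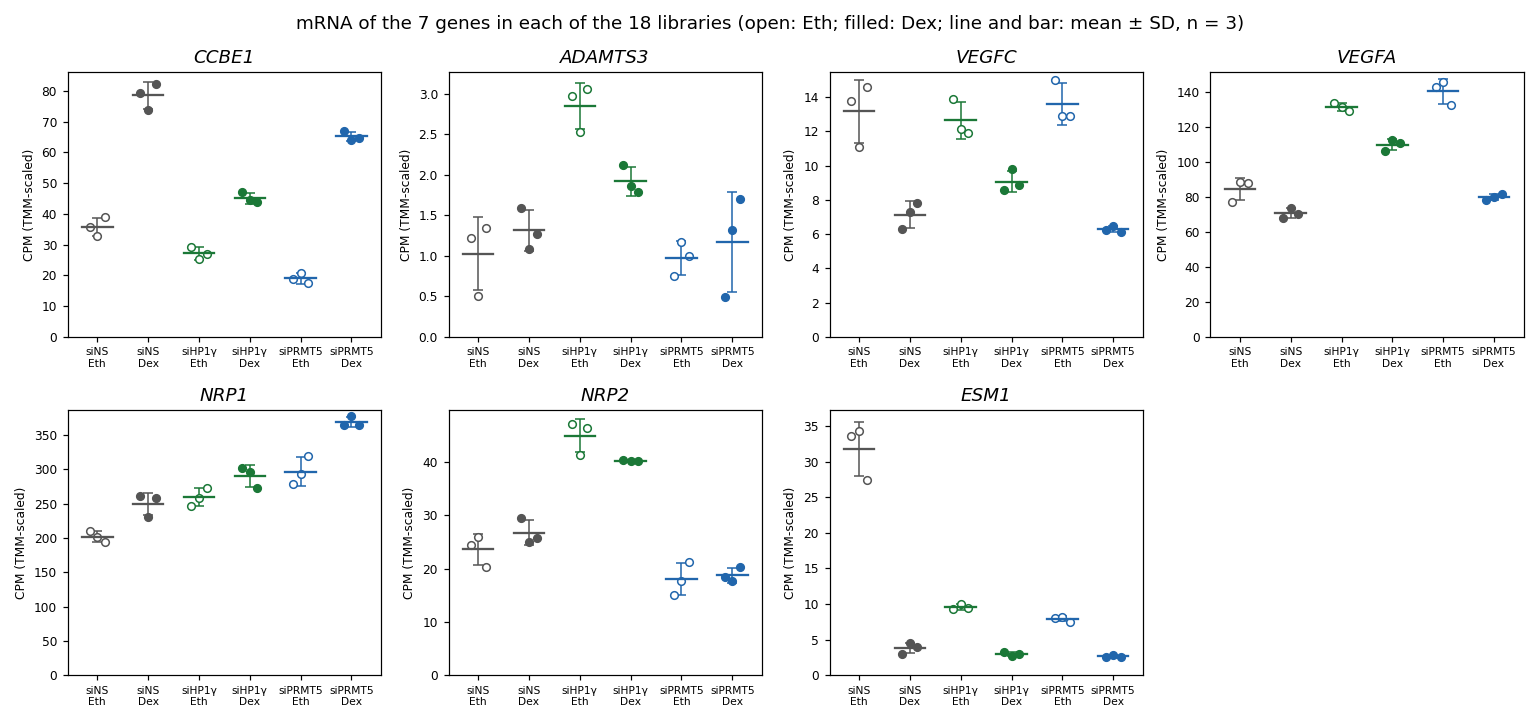
The level of each of the 7 genes (y axis, TMM-scaled CPM on a linear scale from 0) in the 6 conditions (x axis), with a point for each of the 18 libraries, open for Eth and filled for Dex, and a line and bar for the mean ± SD (n = 3). CCBE1 is highest in siNS Dex (73.9 to 82.4 CPM), ESM1 is highest in siNS Eth (27.4 to 34.3 CPM), and NRP2 and ADAMTS3 are highest in the siHP1γ libraries.

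CCBE1, the enhancer of VEGFC maturation (chr18:59430939-59697662 on hg38, minus strand), was higher with Dex in all 3 siRNA settings and lower in depleted cells with and without Dex. In siNS cells, its level was 35.7, 32.9 and 38.8 CPM with Eth and 79.5, 73.9 and 82.4 CPM with Dex, which is 2.20-fold higher (log2 fold change 1.14, SE 0.0829). In siHP1γ cells it was 29.4, 25.2 and 27.0 CPM with Eth and 47.1, 44.4 and 43.8 CPM with Dex. In siPRMT5 cells it was 18.7, 20.9 and 17.4 CPM with Eth and 67.0, 64.2 and 64.6 CPM with Dex. No neighbouring conditions overlapped in the order of levels, which ran from siPRMT5 Eth through siHP1γ Eth, siNS Eth, siHP1γ Dex and siPRMT5 Dex to siNS Dex. In bulk RNA, fewer cells that express a gene and less RNA per cell cannot be told apart.

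CCBE1 was lower with Eth than with Dex under both depletions, which were unlike in the treatment with the larger difference from siNS cells. With siHP1γ, the difference from siNS cells was larger with Dex (log2 fold change -0.80, SE 0.0803) than with Eth (-0.40, SE 0.0891). With siPRMT5, it was larger with Eth (-0.92, SE 0.0941) than with Dex (-0.27, SE 0.0787). The Dex response of CCBE1 was accordingly 1.66-fold in siHP1γ cells and 3.44-fold in siPRMT5 cells. Against siNS cells, the response differed by -0.40 (SE 0.120) in siHP1γ cells and by 0.65 (SE 0.123) in siPRMT5 cells on the log2 scale. Both values are a description without a test, since levels that enter them chose the gene. The siNS Dex and siNS Eth libraries enter both differences, so the 2 values are not independent of each other. The exons of CCBE1 share 355 bases (5.03% of its exonic bases) with a long non-coding RNA on the opposite strand, and the strand setting of the counting is not given in the sources used here.

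ADAMTS3, the protease that CCBE1 presents to VEGFC (chr4:72280969-72569221, minus strand; its upstream window is printed above), rose with siHP1γ in Eth-treated cells and passed the test in no other comparison. Its counts were low, 5 to 34 per library. In siNS Eth it was at 1.21, 0.510 and 1.35 CPM and in siHP1γ Eth at 2.97, 2.52 and 3.06 CPM. These libraries did not overlap, and the increase was 1.48 on the log2 scale (SE 0.322, adjusted p = 0.000958). It remained past the threshold with each library left out in turn (1.14 to 1.72). With Dex, the siHP1γ libraries at 2.13, 1.86 and 1.79 CPM also lay above the siNS libraries at 1.59, 1.09 and 1.27 CPM, but the difference of 0.54 (SE 0.316) did not pass (adjusted p = 0.235).

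In siPRMT5 cells, ADAMTS3 was at 0.751, 1.17 and 0.9999 CPM with Eth and at 0.489, 1.32 and 1.70 CPM with Dex, within the range of the siNS libraries apart from the lowest and highest Dex values. The differences from siNS cells were -0.07 (SE 0.409) with Eth and -0.20 (SE 0.356) with Dex. At counts this low, a change of that size was not detectable. The Dex response of ADAMTS3 did not pass in siHP1γ cells (-0.56, adjusted p = 0.283) or in siPRMT5 cells (0.25, adjusted p = 0.756). Its levels in the 4 siNS and siPRMT5 conditions overlapped, and both siHP1γ conditions lay above them and apart from each other.

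VEGFC, the lymphangiogenic ligand (chr4:176683538-176792922, minus strand; upstream window above), was lower with Dex and did not pass the test for either depletion. In siNS cells, it was at 13.8, 11.1 and 14.6 CPM with Eth and at 6.27, 7.30 and 7.80 CPM with Dex, a description of -0.89 on the log2 scale (SE 0.134). In siPRMT5 cells it fell from 15.03, 12.9 and 12.9 CPM with Eth to 6.26, 6.49 and 6.11 CPM with Dex. This decrease of 1.11 (log2 fold change -1.11, SE 0.137, adjusted p = 8.25e-07) passed both the p-value and the 1.5-fold limit set for Dex comparisons. In siHP1γ cells it was at 13.9, 12.2 and 11.9 CPM with Eth and at 8.58, 9.78 and 8.84 CPM with Dex. The difference of -0.48 (SE 0.127), a 1.39-fold decrease, missed both the limit of 0.01 (adjusted p = 0.0214) and the 1.5-fold limit.

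The Dex and Eth libraries of VEGFC did not overlap in any of the 3 siRNA settings. The differences between the Dex responses did not pass: 0.41 (95% interval 0.03 to 0.79, adjusted p = 0.258) for siHP1γ against siNS and -0.22 (-0.62 to 0.17, adjusted p = 0.576) for siPRMT5 against siNS. With Eth, the depletions left VEGFC at -0.06 (-0.31 to 0.19) for siHP1γ and 0.05 (-0.21 to 0.30) for siPRMT5 against siNS, and the 3 Eth conditions overlapped. With Dex, siHP1γ libraries lay above siNS libraries by 0.35 (SE 0.138), which did not pass (adjusted p = 0.0699) but did when libraries were scaled by their totals alone (0.43, adjusted p = 0.0237). In this comparison, that scaling raised the log2 fold changes of all genes tested by a median of 0.0813. The siPRMT5 Dex and siNS Dex libraries overlapped (-0.17, adjusted p = 0.367).

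**Figure D2:**
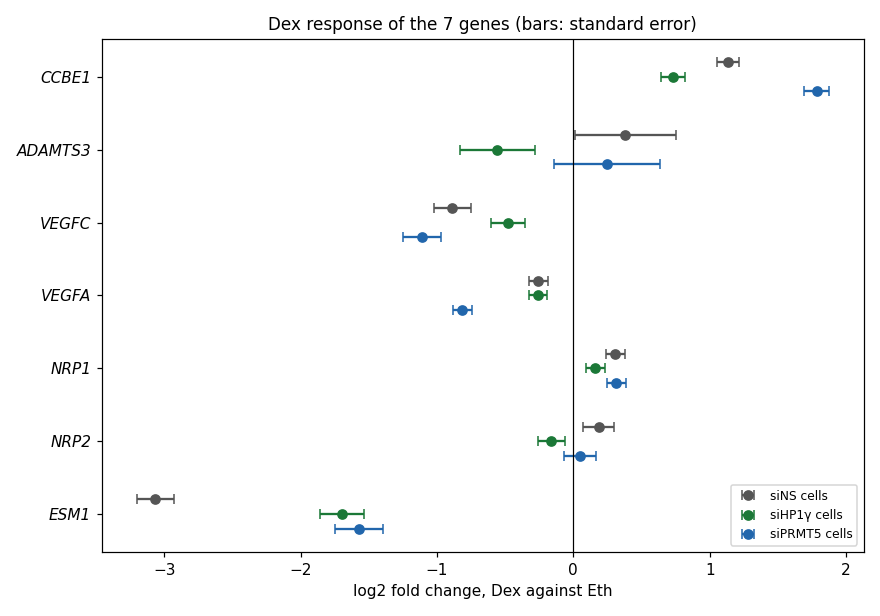
Log2 fold change of Dex against Eth (x axis) for the 7 genes (y axis) in siNS, siHP1γ and siPRMT5 cells (colours), with standard errors as bars. CCBE1 lies to the right of 0 and VEGFC, VEGFA and ESM1 to the left in all 3 siRNA settings, with VEGFA at -0.26, -0.26 and -0.82.

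VEGFA, the angiogenic ligand (chr6:43770184-43786487, plus strand), rose with both depletions in Eth-treated cells and fell with Dex in siPRMT5 cells. In siNS cells it was at 77.1, 88.4 and 88.0 CPM with Eth and at 68.0, 73.5 and 70.5 CPM with Dex. The siHP1γ libraries were at 134, 131 and 129 CPM with Eth and at 106, 112 and 111 CPM with Dex. The siPRMT5 libraries were at 143, 146 and 132 CPM with Eth and at 78.0, 79.9 and 81.5 CPM with Dex. Every siHP1γ library thus lay above every siNS library of the same treatment, whereas siPRMT5 libraries were far above siNS libraries with Eth and close to them with Dex.

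With siHP1γ, VEGFA rose by 0.64 on the log2 scale with Eth (SE 0.0682, adjusted p = 1.05e-07) and by 0.64 with Dex (SE 0.0688, adjusted p = 1.51e-07). With siPRMT5, it rose by 0.73 with Eth (SE 0.0684, adjusted p = 3.3e-09). With Dex, the siPRMT5 increase was 0.18 (SE 0.0698, adjusted p = 0.0449), and this call was lost with no filter on low counts (adjusted p = 0.215) and with the 6 libraries of the comparison alone (adjusted p = 0.0686). It was also lost without siNS Eth 3, siNS Dex 1, siNS Dex 3, siHP1γ Eth 2, siPRMT5 Dex 2 or siPRMT5 Dex 3 (log2 fold change 0.15 to 0.18, adjusted p 0.0506 to 0.139).

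VEGFA fell with Dex in siPRMT5 cells (log2 fold change -0.82, SE 0.0684, adjusted p = 8.8e-10). In siHP1γ cells its Dex response of -0.26 (SE 0.0669, adjusted p = 0.0178) passed neither limit, and in siNS cells it was -0.26 (SE 0.0699) as a description. The response in siPRMT5 cells differed from that in siNS cells by -0.56 (SE 0.0976, adjusted p = 0.00148), and 3.8% of the genes tested passed this interaction test (1.58% higher and 2.23% lower). The response in siHP1γ cells differed from that in siNS cells by 0.0001 (95% interval -0.17 to 0.17). VEGFA was the 1 gene of the 5 members tested that passed an interaction test. In the order of its levels, siPRMT5 Dex and siNS Eth overlapped, as did siHP1γ Eth and siPRMT5 Eth.

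NRP1 (chr10:33177492-33336262, minus strand), the coreceptor of VEGFA and of class 3 semaphorins, rose with both depletions with Eth and with Dex. In siNS cells it was at 211, 201 and 194 CPM with Eth and at 260, 231 and 258 CPM with Dex. With siHP1γ, the level was 247, 258 and 273 CPM with Eth and 302, 296 and 273 CPM with Dex. With siPRMT5, the level was 279, 293 and 319 CPM with Eth and 365, 377 and 365 CPM with Dex. The 3 siPRMT5 Dex libraries were the highest of the 18, and the siNS Eth libraries the lowest.

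The siPRMT5 increase of NRP1 was 0.56 with Eth (SE 0.0688, adjusted p = 3.35e-07) and 0.56 with Dex (SE 0.0680, adjusted p = 2.48e-07). The siHP1γ increase was 0.36 with Eth (SE 0.0687, adjusted p = 0.000218) and 0.22 with Dex (SE 0.0680, adjusted p = 0.0216). The last call was lost with no filter on low counts (adjusted p = 0.0541), with the 6 libraries alone (adjusted p = 0.0579), and without siNS Dex 2 (0.15, adjusted p = 0.156), siHP1γ Dex 1 (0.19, adjusted p = 0.0707) or siHP1γ Dex 2 (0.20, adjusted p = 0.066). With Dex, NRP1 differed by 0.31 in siPRMT5 cells (SE 0.0679, adjusted p = 0.00136), below the 1.5-fold limit, and by 0.16 in siHP1γ cells (adjusted p = 0.196). In siNS cells the description was 0.31 (SE 0.0687). The exons of NRP1 share 561 bases (4.87%) with a long non-coding RNA on the opposite strand.

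NRP2 (chr2:205681990-205798133, plus strand), the coreceptor that binds VEGFC with VEGFR3 on lymphatic endothelium, rose with siHP1γ and fell with siPRMT5. In siNS cells it was at 24.5, 26.0 and 20.3 CPM with Eth and at 29.5, 25.1 and 25.8 CPM with Dex. Both siHP1γ conditions were higher, at 47.2, 41.4 and 46.4 CPM with Eth and at 40.4, 40.2 and 40.1 CPM with Dex. The siPRMT5 libraries held 15.1, 17.7 and 21.2 CPM with Eth and 18.4, 17.6 and 20.3 CPM with Dex. All 6 siHP1γ libraries lay above all other libraries.

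With siHP1γ, NRP2 rose by 0.93 with Eth (SE 0.107, adjusted p = 2.99e-07) and by 0.59 with Dex (SE 0.104, adjusted p = 0.000161). With siPRMT5, it fell by 0.52 with Dex (SE 0.113, adjusted p = 0.000536) and by 0.39 with Eth (SE 0.118, adjusted p = 0.0101). The siPRMT5 Eth and siNS Eth libraries overlapped, and that call was lost without siNS Eth 2 (-0.31, adjusted p = 0.0594) or siPRMT5 Eth 1 (-0.27, adjusted p = 0.0828). The Dex response of NRP2 was -0.16 in siHP1γ cells (adjusted p = 0.435), 0.05 in siPRMT5 cells (adjusted p = 0.854) and 0.18 in siNS cells as a description. NRP1 and NRP2 were thus both higher with siHP1γ, and with siPRMT5 NRP1 rose while NRP2 fell.

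**Figure D3:**
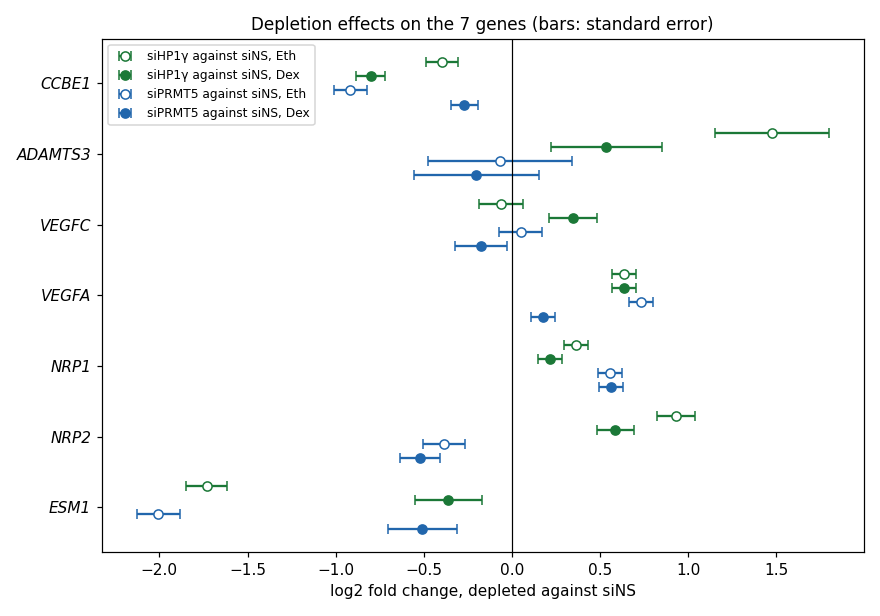
Log2 fold change of depleted against siNS cells (x axis) for the 7 genes (y axis), green for siHP1γ and blue for siPRMT5, open for Eth and filled for Dex, with standard errors as bars. NRP2 lies to the right of 0 with siHP1γ (0.93 and 0.59) and to the left with siPRMT5 (-0.39 and -0.52), and VEGFA with siPRMT5 lies at 0.73 with Eth and 0.18 with Dex.

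ESM1, the endocan proteoglycan (chr5:54977867-55022671, minus strand), was lower with Dex in all 3 siRNA settings, and its Eth level was lower in both kinds of depleted cells. In siNS cells it was at 33.7, 34.3 and 27.4 CPM with Eth and at 3.00, 4.47 and 3.99 CPM with Dex, which is 8.38-fold lower as a description. In siHP1γ cells it went from 9.23, 10.0 and 9.46 CPM with Eth to 3.23, 2.64 and 2.91 CPM with Dex (log2 fold change -1.70, SE 0.160). In siPRMT5 cells it went from 8.05, 8.22 and 7.50 CPM with Eth to 2.54, 2.88 and 2.49 CPM with Dex (-1.57, SE 0.174). The Dex and Eth libraries did not overlap in any setting, and since ESM1 was chosen for being lower with Dex, these values are given without a test.

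With Eth, ESM1 was 3.32-fold lower in siHP1γ cells and 4.02-fold lower in siPRMT5 cells than in siNS cells, with no overlap of libraries. With Dex the conditions lay close together: siHP1γ Dex overlapped with siNS Dex (-0.36, SE 0.189) and siPRMT5 Dex lay just below it (-0.51, SE 0.196). The Dex response was smaller in depleted than in siNS cells, by 1.37 (SE 0.226) for siHP1γ and by 1.496 (SE 0.238) for siPRMT5 on the log2 scale. This is a description, since the siNS response chose the gene. Both differences share the siNS libraries. ESM1 shares 44 exonic bases (1.63%) with a long non-coding RNA on the same strand.

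Counted over the 5 members not chosen by their levels, VEGFC and VEGFA fell with Dex in siPRMT5 cells (2 of 5), where 5.44% of all genes tested passed (2.69% higher and 2.75% lower). In siHP1γ cells, 1.67% of all genes passed (1.01% higher and 0.66% lower), and the 2 smallest adjusted p-values of the 5 members were those of VEGFA (0.0178) and VEGFC (0.0214), which missed both the p-value and the 1.5-fold limit. In siNS cells, where the rule used this contrast, 2.71% of all genes passed (1.65% higher and 1.06% lower), and the Dex and Eth libraries of 5 of the 7 members did not overlap (CCBE1 and NRP1 higher, and VEGFC, VEGFA and ESM1 lower). Over all genes tested, 14.6% lay apart and higher and 13.3% apart and lower in that contrast.

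Of the 5 members tested for depletion, siHP1γ raised 4 with Eth (ADAMTS3, VEGFA, NRP1 and NRP2) and 3 with Dex (VEGFA, NRP1 and NRP2) and lowered none. Of all genes tested, 31.8% passed with Eth (16.5% higher and 15.2% lower) and 24% with Dex (11.7% higher and 12.3% lower). Higher genes made up 52.1% of the calls with Eth and 48.7% with Dex, and 63.8% and 69.2% when libraries were scaled by their totals alone. That scaling raised the log2 fold changes by a median of 0.0566 with Eth and 0.0813 with Dex. That the 7 increases kept their direction under it is thus no support for them. With siPRMT5, VEGFA and NRP1 rose and NRP2 fell both with Eth and with Dex (3 of 5), where 42.1% of all genes passed with Eth (20.6% higher and 21.6% lower) and 42.4% with Dex (20.6% higher and 21.9% lower). The count for siPRMT5 is thus close to what the same test gave among all genes, and it is no result about the members.

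The median log2 fold change of the 7 members, 2 of them chosen for their values, was 0.36 for siHP1γ with Eth and 0.35 with Dex, beside 0.01 and 0.0049 over all genes tested. For siPRMT5 it was -0.07 with Eth and -0.20 with Dex, beside 0.0005 and 0.0021. For the Dex response it was 0.18 in siNS, -0.26 in siHP1γ and 0.05 in siPRMT5 cells, beside 0.0036, -0.0017 and -0.0009. These medians stand for genes that moved in opposite directions. Exact two-sided permutation tests of single genes with 3 against 3 libraries cannot go below 0.1, the value each comparison without overlap reaches.

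Of 31 other genes of the pathway (ligands, receptors, proteases that cut VEGFC, partners of the neuropilins and oxygen sensing), 22 had enough counts to be tested. KDR, the receptor VEGFR2, had the largest Dex response of the 22 in each siRNA setting. Its libraries were at 1.66, 2.24 and 1.76 CPM in siNS Eth and 6.98, 8.17 and 6.53 CPM in siNS Dex (log2 fold change 1.92, SE 0.198, adjusted p = 7.73e-08). In siHP1γ cells it rose from 1.91, 3.09 and 2.43 to 6.85, 6.36 and 6.96 CPM (1.43, SE 0.184, adjusted p = 5.05e-06). In siPRMT5 cells it rose from 1.29, 2.113 and 1.40 to 13.6, 15.5 and 14.4 CPM (3.19, SE 0.187, adjusted p = 7.84e-13).

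The siPRMT5 Dex libraries of KDR thus lay above all others, 1.01 above siNS Dex (SE 0.138, adjusted p = 1.74e-06). The Dex response of KDR in siPRMT5 cells exceeded that in siNS cells by 1.27 (SE 0.307, adjusted p = 0.018), a call lost without siNS Eth 2 (1.13, adjusted p = 0.058) or siPRMT5 Eth 1 (1.14, adjusted p = 0.0599). KDR is 1 of the 10 endothelial markers. Of the others, PECAM1 also rose with Dex in siNS (1.67, adjusted p = 1.59e-05) and siPRMT5 cells (1.06, adjusted p = 0.000116) and was higher than in siNS Eth in siHP1γ Eth (1.03, adjusted p = 0.00372) and siPRMT5 Eth (1.31, adjusted p = 0.00018), and the lymphatic marker PROX1 (3 to 26 counts per library) rose with Eth under siHP1γ (1.82, adjusted p = 0.000811) and siPRMT5 (1.71, adjusted p = 0.00129). These 2 genes were named after their values were seen. In siHP1γ cells, mean PECAM1 was 2.66 CPM with Eth and 4.11 CPM with Dex. Mean PROX1 was lower with Dex than with Eth in siHP1γ cells (0.945 and 2.01 CPM) and in siPRMT5 cells (1.15 and 1.84 CPM). TIE1, most of the summed level, had means with Eth and Dex of 108 and 120 CPM in siNS, 115 and 101 in siHP1γ and 124 and 119 in siPRMT5 cells. The defining endothelial markers CDH5 and VWF had at most 7 counts in any library. The other VEGF receptors FLT1 and FLT4 had at most 4 counts in any library and were not tested.

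Of the other ligands, VEGFB, a ligand of VEGFR1, fell by 0.30 with siPRMT5 and Eth (SE 0.122, adjusted p = 0.0479). That call was lost with DESeq2 (adjusted p = 0.0532), with its size factors (0.0512), with library totals alone (0.0712), and without siNS Eth 2, siNS Eth 3, siHP1γ Eth 2, siHP1γ Dex 2, siPRMT5 Eth 2 or siPRMT5 Eth 3 (adjusted p 0.051 to 0.18). PGF had a mean of 0.147 to 0.822 CPM per condition, and neither it nor VEGFD was tested.

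All 4 proteases of VEGFC processing that could be tested rose with siHP1γ and Eth, as did ADAMTS3, in a comparison where 31.8% of all genes tested passed and 16.5% were higher. The group itself was not tested. FURIN rose by 0.51 (SE 0.0822, adjusted p = 3.67e-05), the convertase PCSK5 by 0.82 (SE 0.155, adjusted p = 0.000225) and the lysosomal protease CTSD by 0.38 (SE 0.0923, adjusted p = 0.00243). PCSK7, a further convertase, rose by 0.32 (SE 0.109, adjusted p = 0.026), a call lost without siNS Eth 2, siNS Eth 3, siHP1γ Eth 1 or siHP1γ Eth 3 (0.29 to 0.31, adjusted p 0.0668 to 0.0942). With siHP1γ and Dex, FURIN alone of the 4 passed (0.36, adjusted p = 0.00182). With siPRMT5, PCSK5 rose with Eth (0.90, adjusted p = 4.53e-05) and with Dex (1.08, adjusted p = 1.17e-06), and FURIN fell with Dex (-0.37, adjusted p = 0.000982). None of the 4 passed in a Dex response.

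Of the semaphorins and plexins that bind neuropilins, 10 of 13 listed partners were tested. SEMA3A, a repulsive ligand of NRP1, fell with Dex in siNS (-1.10, adjusted p = 8.59e-08), siHP1γ (-0.70, adjusted p = 8.03e-05) and siPRMT5 cells (-0.98, adjusted p = 1.48e-07), the direction opposite to that of KDR. It rose with siPRMT5 by 0.46 with Dex (adjusted p = 0.00246) and by 0.34 with Eth (adjusted p = 0.0101), the latter lost without siNS Eth 3 or siPRMT5 Eth 3 (adjusted p = 0.0513 and 0.0562), and with siHP1γ and Dex by 0.39 (adjusted p = 0.018), lost without siNS Dex 1, siNS Dex 2 or siHP1γ Dex 1 (adjusted p 0.0617 to 0.111). The plexin PLXNA2, named after its values were seen, rose with Dex in siNS (0.90, adjusted p = 2.3e-08), siHP1γ (0.64, adjusted p = 1.01e-05) and siPRMT5 cells (0.59, adjusted p = 1.26e-05). It fell short of the 1.5-fold limit in siHP1γ cells without siHP1γ Dex 2 (0.57), and in siPRMT5 cells without siPRMT5 Eth 1 (0.55) or siPRMT5 Dex 3 (0.51) and with library totals alone (0.58). SEMA3E, a ligand of PLXND1, fell with siPRMT5 by 1.43 with Eth (adjusted p = 3.42e-10) and by 1.12 with Dex (adjusted p = 6.86e-08). PLXNA1, a signalling partner of NRP1, rose with siPRMT5 by 1.35 with Eth (adjusted p = 6.89e-11) and by 0.80 with Dex (adjusted p = 4.07e-07), and fell with siHP1γ and Dex by 0.54 (adjusted p = 0.000326).

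Among further partners, PLXND1 rose with siHP1γ and Eth (0.44, adjusted p = 0.000166) and fell with siPRMT5 and Dex (-0.57, adjusted p = 3.75e-06). PLXNA3 rose with siHP1γ and Eth (0.55, adjusted p = 0.0134), with siPRMT5 and Eth (0.48, adjusted p = 0.0261) and with Dex in siNS cells (0.76, adjusted p = 0.00247), and fell with siPRMT5 and Dex (-0.62, adjusted p = 0.0025). Its 3 increases no longer passed without siNS Eth 1 or siNS Eth 3. The first was also lost without siHP1γ Eth 1, the second without siPRMT5 Eth 1 or siPRMT5 Eth 3, and the third without siNS Dex 1 or siNS Dex 3 (adjusted p 0.0701 to 0.089, 0.0548 to 0.132 and 0.0175 to 0.027 against a limit of 0.01). GIPC1, an adaptor that binds the tail of NRP1, rose with siPRMT5 and Eth by 0.27 (adjusted p = 0.0487), a call lost with at least 10 counts in every library (adjusted p = 0.0538) and when any 1 of 12 libraries was left out, among them siNS Eth 1 (0.18, adjusted p = 0.236), siPRMT5 Eth 1 (0.22, adjusted p = 0.16) and siPRMT5 Eth 2 (0.25, adjusted p = 0.117).

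The other calls among these partners, of genes named after their values were seen or of SEMA3E, were the following. SEMA3E fell with Dex in siNS cells (-0.70, adjusted p = 5.08e-05) and with siHP1γ and Eth (-0.33, adjusted p = 0.0218, lost without siNS Eth 1 at 0.0747 or siHP1γ Eth 3 at 0.123). SEMA3C, another class 3 semaphorin, rose with siPRMT5 and Dex (0.73, adjusted p = 2.3e-06). PLXNA2 was lower in siHP1γ Dex (-0.32, adjusted p = 0.0072, lost without siHP1γ Dex 1 at 0.0513) and in siPRMT5 Dex (-0.30, adjusted p = 0.00509, lost without siPRMT5 Dex 1 at 0.0656) than in siNS Dex. SEMA3F, a ligand of NRP2, rose with siPRMT5 and Eth (0.54, adjusted p = 0.0123) and fell with siHP1γ and Dex (-0.60, adjusted p = 0.017) and with Dex in siPRMT5 cells (-0.80, adjusted p = 0.00132). Each of these 3 calls of SEMA3F was lost without 1 library or another: siNS Eth 1 or siNS Eth 3 for the first, siNS Dex 3 or siHP1γ Dex 1 for the second, and siPRMT5 Dex 2 for the third (highest adjusted p 0.0697, 0.117 and 0.0178).

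**Figure D4:**
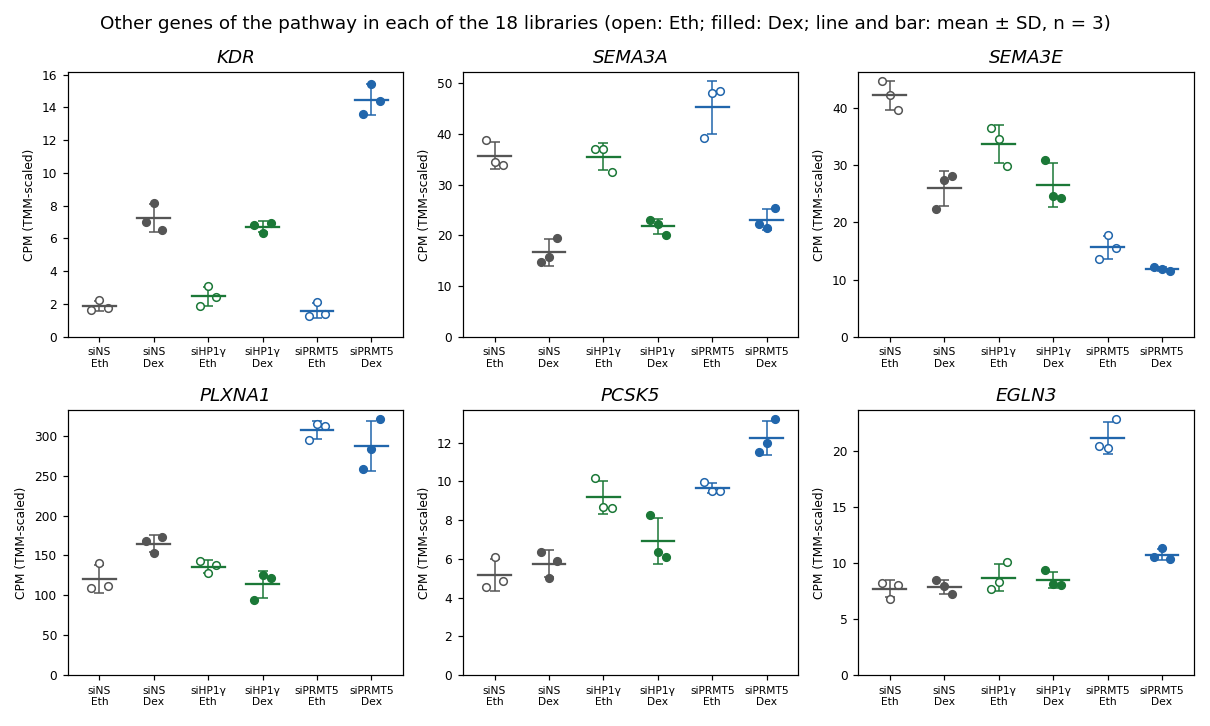
The level (y axis, TMM-scaled CPM from 0) of 6 other genes of the pathway in the 6 conditions (x axis), with a point for each library, open for Eth and filled for Dex, and a line and bar for the mean ± SD (n = 3). KDR is highest in siPRMT5 Dex (13.6 to 15.5 CPM), EGLN3 is highest in siPRMT5 Eth (20.3 to 22.9 CPM), and SEMA3E is lowest and PLXNA1 highest in the siPRMT5 libraries.

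All 6 listed genes of oxygen sensing, which governs VEGFA transcription in hypoxia, were tested. HIF1A rose with siPRMT5 by 0.51 with Eth (adjusted p = 6.23e-06) and by 0.36 with Dex (adjusted p = 0.00038). EGLN3, a prolyl hydroxylase that is itself a hypoxia target, was at 8.28, 6.83 and 8.08 CPM in siNS Eth and 20.5, 20.3 and 22.9 CPM in siPRMT5 Eth (1.46, adjusted p = 5.34e-10). With Dex in siPRMT5 cells, EGLN3 fell to 10.6, 11.3 and 10.4 CPM (-0.98, adjusted p = 4.59e-07), a difference from the siNS response of -1.01 (SE 0.181, adjusted p = 0.00184). EGLN3 and VEGFA thus both had their highest mean in siPRMT5 Eth, and both fell with Dex in those cells. With siHP1γ, VEGFA also rose (0.64 with Eth and with Dex), and none of the 6 genes passed as higher in either treatment. EGLN3 had a mean of 8.72 CPM in siHP1γ Eth and 7.73 CPM in siNS Eth. A link between these genes and VEGFA was not tested. Only RNA was measured, which does not show the protein level or activity of hypoxia-inducible factors. EPAS1, which encodes HIF2α, rose with Dex in siPRMT5 cells (0.84, adjusted p = 1.61e-07) and in siNS cells (0.63, adjusted p = 3.49e-05). Against siNS Dex, EPAS1 was lower in siHP1γ Dex (-0.39, adjusted p = 0.00284) and higher in siPRMT5 Dex (0.38, adjusted p = 0.0013), where EGLN3 was also higher (0.45, adjusted p = 0.00659). ARNT, the shared partner of HIF1α and HIF2α and named after its values were seen, was lower in siPRMT5 Dex (-0.52, adjusted p = 2.86e-05) and in siHP1γ Dex (-0.46, adjusted p = 0.000271) than in siNS Dex. The siNS call of EPAS1 was lost through the 1.5-fold limit without siNS Eth 3 (0.56) or siNS Dex 3 (0.58).

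Counted over the 22 genes, 4 rose and 2 fell with Dex in siNS cells (2.71% of all genes passed), 2 rose and 1 fell in siHP1γ cells (1.67%), and 3 rose and 3 fell in siPRMT5 cells (5.44%). With siHP1γ, 6 rose and 1 fell with Eth (31.8% of all genes), and 2 rose and 5 fell with Dex (24%). With siPRMT5, 8 rose and 2 fell with Eth (42.1% of all genes), and 8 rose and 6 fell with Dex (42.4%). The Dex response differed from siNS cells for 1 of the 22 with siHP1γ, where 0.399% of all genes passed (0.118% higher and 0.281% lower), and for 7 with siPRMT5, where 3.8% did. The median log2 fold change of the 22 lay between -0.22 and 0.17 in all 9 comparisons.

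The genes most like each member were taken as the 3 with the highest Pearson r over the 6 condition means of log2 CPM, out of 11403 genes whose mean was 5 CPM or more, and are given as a description, since 6 means leave many near-perfect matches. Over the 18 single libraries, r was lower for every gene named below, from 0.617 (ZNF416 with NRP1) to 0.964 (TRNP1 with CCBE1). For CCBE1 the 3 genes were ZNF296 (0.998, and 0.790 over the libraries), CFLAR (0.987) and TRNP1 (0.984). For VEGFC they were JUN (0.992), CARD8 (0.989) and RBM12 (0.988). JUN encodes a subunit of AP-1, and CFLAR an inhibitor of caspase 8.

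For ADAMTS3 they were AC016582.2 (0.996), DCAF8 (0.993) and PACS1 (0.993). For VEGFA they were GRK5 (0.992), CEP76 (0.992) and TBC1D9 (0.991). For NRP1 they were RANBP2 (0.994), ZNF416 (0.994) and PRPF4B (0.993), and for NRP2 LIG3 (0.997), SCAMP4 (0.996) and PDIA4 (0.994). For ESM1 they were AC018978.1 (0.997), PARD6B (0.986) and ADAMTS1 (0.984), a secreted protease of the ADAMTS family. Among the members themselves, ADAMTS3 and NRP2 had an r of 0.939, and CCBE1 had an r of -0.915 with VEGFC and -0.891 with VEGFA over the same 6 means.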

How the data were processed

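The 18 RNA libraries are from MDA-MB-231 cells under 6 conditions, each with 3 replicates that the paper calls biological. Per the paper's methods and the submitters' processing notes, the authors prepared libraries with Lexogen kits, mapped reads on hg38 with Bowtie2 2.4.2 and counted them with HTSeq 0.9.1. The deposited values are raw counts per gene symbol. The authors also deposited their own comparisons made with DESeq2 2.11.40.7 (means, fold changes, test statistics and p-values), which were not used. Strand setting and annotation are not given in the sources used here. Reads over exon junctions can be lost with this aligner, which aligns each read in 1 piece.

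Genes were kept with filterByExpr (15298), scaled by TMM and tested over all 18 libraries with the edgeR 4.0.16 quasi-likelihood test in R 4.3.3 (12 residual degrees of freedom, Benjamini-Hochberg adjustment over all genes tested). Dex comparisons were called at 0.01 with a limit of 1.5-fold, depletions and interactions at 0.05. An interaction is the Dex response in depleted cells minus that in siNS cells. The replicate numbers do not mark shared batches in the labels. On simulated counts for siPRMT5 against siNS with Dex (15058 genes tested), 41 of 49 genes changed 2-fold and 34 of 50 changed 1.5-fold were recovered, with 13 false among 185 calls. Recovery was lower for the Dex responses, at 17 of 50 genes changed 1.5-fold in siNS, 23 of 50 in siHP1γ and 17 of 50 in siPRMT5 cells. For the interactions it was 22 of 50 (siHP1γ) and 25 of 50 (siPRMT5), so many changes of that size can be missed there. In each simulation few genes were changed, in 1 condition, and all others kept the same mean in every condition. In the real comparison of siPRMT5 against siNS with Dex, 42.4% of genes passed. Recovery and the share of false calls in the real comparisons can therefore differ from these values.

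The members and lists were chosen with earlier results of these data known. Named were all members, the siRNA targets, 8 fixed genes of the pathway list, any listed gene past the threshold with an absolute log2 fold change of at least 1, and the 3 genes most like each member. PLXNA2, SEMA3C, SEMA3F, ARNT, PECAM1 and PROX1 were named after their values were seen. Coordinates are from GENCODE 44, in which 37471 of the 60642 symbols were found. Alternatives were DESeq2 1.42.0, its size factors or library totals in edgeR, no filter or 10 counts in every library, a replicate block, the libraries of a comparison alone, a 2-fold limit, and each library left out in turn.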

Additional observations from a re-analysis of the deposited data

Results flagged for a closer look

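In each case below, the Dex response in depleted cells differed from that in siNS cells by the interaction test of the edgeR fit (adjusted p-value under 0.05). For siPRMT5 against siNS, the difference on the log2 scale was -0.56 for VEGFA, -1.01 for EGLN3, 1.27 for KDR, -1.10 for PLXNA3, -0.54 for PLXND1 and -0.55 for PLXNA1 (adjusted p = 0.00148, 0.00184, 0.018, 0.00695, 0.00849 and 0.0277). For siHP1γ against siNS it was -0.71 for PLXNA1 (adjusted p = 0.0229). Of genes named after their values were seen, SEMA3C (0.56, adjusted p = 0.0289) and SEMA3F (-0.89, adjusted p = 0.0402) also passed for siPRMT5. All share the siNS libraries.

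The calls of VEGFA, EGLN3, PLXNA3 and PLXND1 held without any single library of the 18. The siPRMT5 call of PLXNA1 was lost without siNS Eth 1, siNS Eth 3, siNS Dex 1, siNS Dex 3, siPRMT5 Eth 2, siPRMT5 Eth 3, siPRMT5 Dex 1 or siPRMT5 Dex 2 (-0.53 to -0.46, adjusted p 0.051 to 0.107). Its siHP1γ call was lost without siNS Eth 1, siNS Eth 3, siNS Dex 1, siNS Dex 3, siHP1γ Eth 1 or siHP1γ Eth 3 (-0.70 to -0.64, adjusted p 0.0657 to 0.116). The call of KDR was lost without siNS Eth 2 or siPRMT5 Eth 1 (adjusted p = 0.058 and 0.0599). That of SEMA3C was lost without siNS Eth 1, siNS Eth 3, siNS Dex 1, siPRMT5 Eth 1, siPRMT5 Eth 2 or siPRMT5 Dex 2 (0.46 to 0.58, adjusted p 0.057 to 0.0952). That of SEMA3F was lost without siNS Eth 1 or 3, any 1 of the siNS Dex libraries, siHP1γ Eth 1, siHP1γ Dex 2, any 1 of the siPRMT5 Eth libraries, siPRMT5 Dex 1 or siPRMT5 Dex 2 (-0.92 to -0.75, adjusted p 0.0549 to 0.134).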

How the results depend on the processing

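Under the alternatives other than leaving out a library, 834 of 849 values for single genes were unchanged. For tested values this means the same direction and side of the threshold, which values given as a description do not have. Of a further 142 values, 136 were unchanged. These were counts of genes or tested members called, and the decreases of PRMT5 and CBX3 under their own siRNA. Counts were judged by size alone: with the replicate block, 407 genes in place of 414 (siNS Dex response) passed as unchanged. With a library left out, 2092 of 2214 and 364 of 378 values were unchanged. The number of genes with a different Dex response in siHP1γ cells (61) became 298 with DESeq2, 374 with no filter on low counts and 94 with the replicate block, and ranged from 20 to 186 with a library left out, and that in siPRMT5 cells (582) ranged from 319 to 897. A limit of 2-fold left 194 (siNS), 106 (siHP1γ) and 373 (siPRMT5) genes in the Dex responses. Differences of Dex responses near 0 changed sign: VEGFA for siHP1γ with no filter (-0.0137) and with the replicate block (-0.0012), and NRP1 for siPRMT5 with no filter (-0.009).

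With a library left out, the sign also varied for values that had not passed: the siHP1γ interaction of VEGFA (-0.0276 to 0.0702), the siPRMT5 interactions of ADAMTS3 (-0.4274 to 0.2346), NRP1 (-0.0408 to 0.0687) and NRP2 (-0.2456 to 0.0097), the siPRMT5 Dex responses of ADAMTS3 (-0.0474 to 0.6148) and NRP2 (-0.0644 to 0.192), ADAMTS3 for siPRMT5 with Eth (-0.4015 to 0.1881) and with Dex (-0.4995 to 0.1626), and VEGFC for siHP1γ (-0.177 to 0.0046) and siPRMT5 (-0.0652 to 0.13) with Eth. The causes were not tested.

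Same-numbered replicates did not in general deviate together: of 45 correlations of their deviations over 15 pairs of conditions, 13 were over 0.1 (-0.438 to 0.602). In siNS Eth and siHP1γ Dex, all 3 were over 0.1 (0.21 to 0.602). No pairwise comparison sets these conditions against each other, but both enter the siHP1γ interaction with the same sign. The replicate block gave 94 genes in that interaction in place of 61. The labels do not pair the numbers, so the numbers were not used as pairs. The replicate block gave 407, 253 and 828 genes in the Dex responses of siNS, siHP1γ and siPRMT5 cells and ended the siPRMT5 Eth call of GIPC1 (adjusted p = 0.0556). SEMA3E with siHP1γ and Eth no longer passed with library totals alone (adjusted p = 0.0523). ADAMTS3 could not be tested with at least 10 counts in every library, and its counts of 5 to 34 limit what can be seen. Intervals cover the spread between these 18 libraries only.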
